A study of Mus musculus with 22 samples.

Results

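The 10 genes described here encode feedback regulators of the mitogen-activated protein (MAP) kinase cascades and 1 of the kinases themselves. They are the dual-specificity phosphatases Dusp1, Dusp4, Dusp5, Dusp6, Dusp8, Dusp10 and Dusp16, the Sprouty genes Spry2 and Spry4, and Mapk11, which encodes p38β. They were chosen by name, with earlier results of these data known, and are 10 of the 52636 genes in the deposited table. All 10 passed the filter on low values in every comparison.

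The data are RNA-seq of wild-type organoids, which are epithelial cultures grown in a gel from crypts of the adult mouse duodenum. Of organoid lines from 4 mice, all were sequenced untreated, once each (CD1, line 1, passage 12; WT2, line 2, passage 14; 1-20, line 3, and 2-20, line 4, passage 4). These passages are those of the labels. For the experiment on application methods, the study lists lines at passages 12 and 14 from male mice and 2 lines at passage 2 from female mice. Lines 1, 2 and 4 were also sequenced once in each of 6 groups exposed to cold atmospheric plasma (CAP), an ionized helium gas that loads the culture medium with reactive oxygen and nitrogen species. The medium held EGF, Noggin and R-spondin in all groups, so the ERK cascade had its ligand in the untreated cultures as well. Direct CAP means that the cultures themselves were exposed 1 day after replating, with fresh medium either 30 min or 24 h afterwards. Indirect CAP means that the organoids were moved into the medium of a different, exposed culture. Plasma-activated medium (PAM) was exposed before it met any organoids. Exposure to these media began on day 1 or on day 2, which gives the groups called here indirect day 1, PAM day 1, indirect day 2 and PAM day 2. The labels give the day 1 groups as 30 minutes and the day 2 groups as 24 hours, whereas the study's methods give an exposure of 24 h to all 4. By those methods the day 1 groups had a further day in fresh medium before collection and the day 2 groups had none. The day 1 groups received newly made exposed media, whereas those of the day 2 groups were made at day 1 and applied at day 2. The day of exposure, the time since its end and the age of the exposed medium therefore cannot be told apart. The time at which the direct 30 min group was collected is not certain.

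MAP kinases are switched on by phosphorylation of a threonine and a tyrosine in their activation loop, and the phosphatases of the Dusp family described here remove both phosphates. The genes of several of these phosphatases are themselves induced by the kinases they inactivate, which makes the phosphatases a negative feedback. Dusp1, Dusp4 and Dusp5 proteins act mainly in the nucleus, and Dusp5 acts on ERK. Dusp6 acts on ERK in the cytoplasm, and Dusp8, Dusp10 and Dusp16 act mainly on the stress kinases JNK and p38. Sprouty proteins damp the signal from receptor tyrosine kinases to ERK. In the intestine, EGF and ERK signaling drives the proliferation of crypt cells, while JNK and p38 respond to stress such as oxidants.

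Promoter sequences of 8 of the 10 genes were found in RefSeq on GRCm38.p6, and those of Dusp1, Dusp8 and Dusp5 are shown because they held the fullest matches to stimulus-responsive motifs among the 8. Each is the stretch from 250 to 51 bases before the start of the gene, 5′ to 3′ on the gene's strand. Capitals mark matches on either strand to TGACGTCA, the cyclic AMP response element (CRE) bound by CREB and ATF proteins, to its core TGACG, to TGACNNNGC, an antioxidant response element, or to the CArG box of the serum response element.
Dusp1: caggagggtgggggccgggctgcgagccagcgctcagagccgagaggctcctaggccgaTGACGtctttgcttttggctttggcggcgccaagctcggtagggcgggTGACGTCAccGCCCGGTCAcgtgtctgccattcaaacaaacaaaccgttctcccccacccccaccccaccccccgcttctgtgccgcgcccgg
Dusp8: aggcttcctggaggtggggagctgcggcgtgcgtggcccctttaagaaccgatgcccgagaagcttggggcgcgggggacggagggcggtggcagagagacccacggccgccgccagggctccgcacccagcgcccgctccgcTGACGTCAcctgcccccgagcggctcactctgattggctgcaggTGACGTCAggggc
Dusp5: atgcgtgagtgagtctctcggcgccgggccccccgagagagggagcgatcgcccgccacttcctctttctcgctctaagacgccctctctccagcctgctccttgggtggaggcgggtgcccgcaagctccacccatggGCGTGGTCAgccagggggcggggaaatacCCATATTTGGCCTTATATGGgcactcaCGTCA
The Dusp1 stretch lies at chr17:26508523-26508722 on the minus strand, that of Dusp8 at chr7:142095335-142095534 on the minus strand and that of Dusp5 at chr19:53528895-53529094 on the plus strand. Over the whole 250 bases before each start, the full CRE was found in Dusp1, 143 to 136 bases before the start, and in Dusp8, where it occurred at 2 positions, 107 to 100 and 63 to 56 bases before the start. The full CRE was found in 1.55% of 32851 RefSeq promoters of the same length. Its core, which every full CRE contains on both strands, was found in 5 of the 8 promoters (Dusp1, Dusp5, Dusp8, Dusp16 and Mapk11), against 17.8% of all. The antioxidant response element was found in Dusp1 and Dusp5, against 10.2% of all, and the CArG box in Dusp5 alone, at 2 adjoining positions, against 1.47%. The AP-1 motif TGANTCA, the ETS motif CCGGAAG and the C/EBP-ATF motif TGATGNAA, in 6.75%, 6.91% and 3.45% of all promoters, were found in 0 of the 8. A match is a description of the letters only. The annotation also places an antisense transcript on the opposite strand that shares 547 bases with the exons of Dusp5. Whether it reaches the printed stretch is not given here.

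Values are reads per gene scaled to 20 M per library and not divided by gene length, so that genes are compared with each other only after division by exon length. The depth estimated from the spacing of low values was between 19.9 and 28.7 M reads (median 22.5). All 7 epithelial markers checked were detected in every group. The labels name the cells stem cells. The summed value of 5 markers of crypt stem cells (Lgr5, Olfm4, Ascl2, Smoc2 and Axin2) was between 32557 and 38876 in the untreated libraries and fell to between 1306 and 2640 in PAM day 1, between 2703 and 3953 in indirect day 2 and between 757 and 2747 in PAM day 2. In these 3 groups all 5 markers were past the threshold given below, and in direct 24 h (5313 to 10861) and indirect day 1 (5936 to 15040) 2 of the 5 were. The summed value of 6 fibroblast markers lay between 13 and 45 in all groups, and that of 4 endothelial markers between 12 and 111, with Dcn, Cdh5 and Kdr at 0 in some groups. The summed value of 4 enterocyte markers was between 34823 and 53104 in the untreated libraries and between 72023 and 97837 in PAM day 2, but 3 of the 4 had log2 fold changes below 0 there (the median was -1.06) and 1 passed the threshold, Alpi, which was higher. Of 4 Paneth cell markers, Defa24 was past the threshold and lower in direct 24 h, indirect day 1 and PAM day 1, and Lyz1 in PAM day 1. Of 4 goblet cell markers, Clca1 was higher in PAM day 1, and of the tuft cell markers Avil was higher in PAM day 1 and PAM day 2 and Pou2f3 lower in PAM day 2. Among 4 enteroendocrine markers 0 passed in any treated group, and of the epithelial markers 2 were higher in PAM day 1. The changes of the 10 genes described below thus run beside changes of stem cell and other lineage transcripts, whose part in them was not tested, and in bulk RNA fewer cells of a type and less RNA per cell cannot be told apart. After removal of group means, the untreated libraries of lines 1 and 2 were compared with the treated libraries. They resembled those of their own line less (median correlation 0.131) than those of the other of these lines (0.422). Results are therefore also given without these untreated libraries, in fits of fewer samples. An exchange of these untreated libraries with each other would not alter fits that leave the line out of account.

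Per kilobase of exon, the untreated organoids held most Spry2 (328 ± 42.8, SD, n = 4), followed by Dusp5 (301 ± 47.3), Dusp6 (281 ± 56.0), Dusp4 (252 ± 37.5) and Dusp16 (191 ± 16.9). The first 4 overlapped in their ranges, which does not compare the genes within single libraries. Dusp8 (52.9 ± 6.85), Dusp1 (38.7 ± 9.61), Dusp10 (23.4 ± 6.44), Mapk11 (20.3 ± 3.83) and Spry4 (15.6 ± 1.21) were lower. In PAM day 2 the highest levels per kilobase were those of Dusp5 (1564 ± 425, n = 3), Dusp6 (1286 ± 607) and Dusp1 (918 ± 615), with overlapping ranges, while Spry2 followed Dusp4 and Spry4 was again last at 17.2 ± 1.21. Dusp1 was seventh of the 10 in the untreated organoids and the third here, with a range (274 to 1500) that overlapped with that of Dusp4 (659 to 946) next to it.

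**Figure D1:**
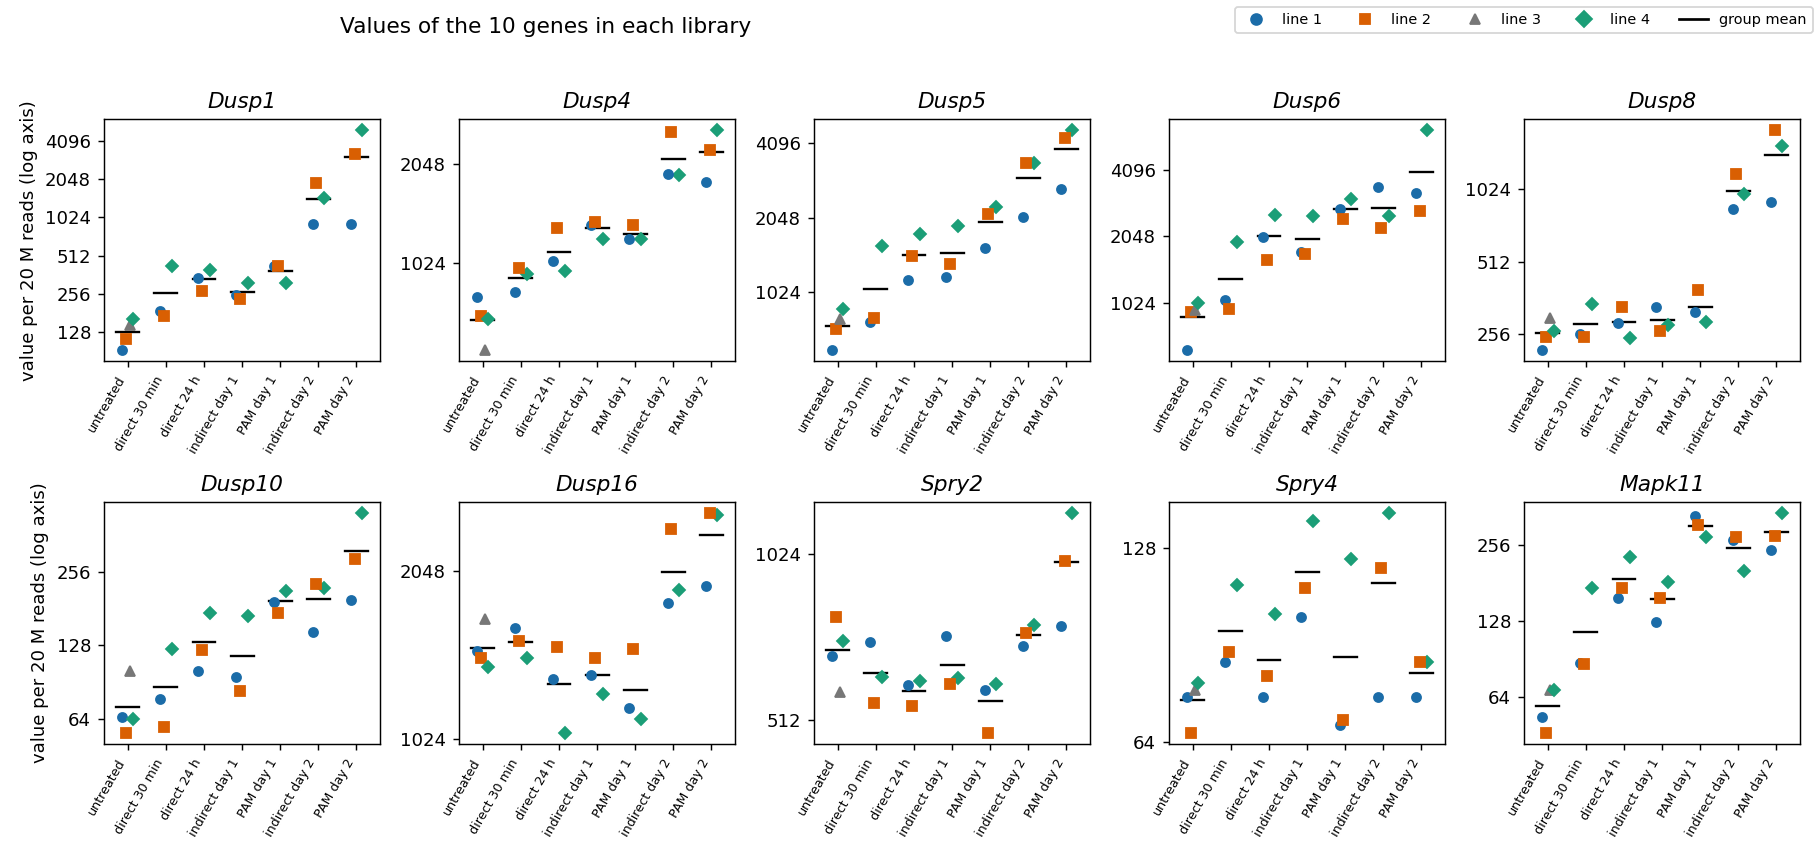
Each panel plots 1 gene, with the value per 20 M reads on a log axis against the 7 groups, points for single libraries shaped and coloured by organoid line and a bar for the group mean. Dusp1 and Dusp8 stand above all their other libraries in both day 2 groups, whereas Mapk11 and Dusp6 are already high in PAM day 1.

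Dusp1, an immediate-early gene in many cell types, had the largest change of the 10 genes in both day 2 groups. It was at 92, 113, 145 and 163 in the untreated libraries of lines 1 to 4. In lines 1, 2 and 4 it was at 187, 172 and 423 in direct 30 min, at 339, 271 and 393 in direct 24 h, at 251, 232 and 309 in indirect day 1 and at 426, 426 and 311 in PAM day 1. It then stood at 911, 1901 and 1452 in indirect day 2 and at 907, 3246 and 4966 in PAM day 2. All libraries of all 6 treated groups were above all untreated libraries, and the day 2 libraries were above all others. In limma's moderated test, the log2 fold change against untreated was 4.28 ± 0.52 (SE) in PAM day 2 (adjusted p = 0.000621) and 3.43 ± 0.27 in indirect day 2 (adjusted p = 7.98e-05). It was 1.61 ± 0.22 in PAM day 1 (adjusted p = 0.000908) and 1.39 ± 0.22 in direct 24 h (adjusted p = 0.00706), which also passed the threshold, namely an adjusted p below 0.01 with a log2 fold change of 1 or more in size. The values of 1.06 in indirect day 1 (adjusted p = 0.0148) and 0.93 in direct 30 min (adjusted p = 0.144) did not pass it. Line 1 was lowest in PAM day 2, and without that library the log2 fold change was 4.99.

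Dusp4 and Dusp5, the other nuclear phosphatases, both rose in the day 2 groups, and Dusp5 also in PAM day 1. Dusp4 was at 807, 708, 557 and 691 in the untreated libraries, and in lines 1, 2 and 4 at 1341, 1367 and 1211 in indirect day 1 and at 1213, 1333 and 1210 in PAM day 1. It reached 1908, 2552 and 1897 in indirect day 2 and 1806, 2263 and 2592 in PAM day 2. Every treated library was above every untreated one. Dusp4 passed the threshold in both day 2 groups, with log2 fold changes of 1.61 ± 0.15 (adjusted p = 0.000134) and 1.68 ± 0.16 (adjusted p = 0.00036). At day 1 its adjusted p was 0.00519 for indirect CAP and 0.00115 for PAM, but the log2 fold changes of 0.93 and 0.87 were below 1. Dusp5 was at 594, 725, 793 and 870 in the untreated libraries. In lines 1, 2 and 4 it was at 1544, 2116 and 2253 in PAM day 1, at 2055, 3415 and 3395 in indirect day 2 and at 2669, 4314 and 4624 in PAM day 2. These libraries did not overlap with the untreated ones, and line 1 was lowest in each of the 3 groups. Its log2 fold change was 1.40 ± 0.17 in PAM day 1 (adjusted p = 0.000515), 1.96 ± 0.20 in indirect day 2 (adjusted p = 0.000193) and 2.35 ± 0.21 in PAM day 2 (adjusted p = 0.000338). In direct 24 h and indirect day 1 it stood just under the threshold, at 0.95 (adjusted p = 0.0103) and 0.96 (adjusted p = 0.0125).

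Dusp6, the cytoplasmic phosphatase of ERK, was already past the threshold in every group but direct 30 min. It was at 622, 931, 945 and 1018 in the untreated libraries, and in lines 1, 2 and 4 at 2027, 1603 and 2559 in direct 24 h, at 1735, 1693 and 2535 in indirect day 1 and at 2721, 2458 and 3007 in PAM day 1. At day 2 it was at 3427, 2243 and 2541 with indirect CAP and at 3227, 2656 and 6197 with PAM. All of these libraries were above all untreated ones, and the library of line 4 in PAM day 2 stood far above the others. The log2 fold changes were 1.23 ± 0.20, 1.18 ± 0.20, 1.65 ± 0.17, 1.64 ± 0.20 and 2.12 ± 0.29, with adjusted p-values of 0.00769, 0.00972, 0.000287, 0.000419 and 0.00101.

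The phosphatases of the stress kinases differed among themselves. Dusp8 stayed near its untreated level in every group up to day 1 and was high in both day 2 groups. It was at 219, 248, 299 and 264 in the untreated libraries, between 246 and 390 in the 12 libraries of the direct and day 1 groups, at 844, 1190 and 979 in indirect day 2 and at 907, 1802 and 1548 in PAM day 2. No day 2 library overlapped with any other. The log2 fold change was 1.95 ± 0.15 in indirect day 2 (adjusted p = 6.34e-05) and 2.41 ± 0.23 in PAM day 2 (adjusted p = 0.00036), against 0.13 to 0.36 in the other 4 groups. Dusp10 was at 65, 56, 100 and 64 in the untreated libraries and, in lines 1, 2 and 4, at 193, 173 and 214 in PAM day 1, at 145, 228 and 220 in indirect day 2 and at 196, 288 and 445 in PAM day 2. It passed the threshold in these 3 groups, with log2 fold changes of 1.46 ± 0.22 (adjusted p = 0.00128), 1.47 ± 0.25 (adjusted p = 0.00205) and 2.06 ± 0.31 (adjusted p = 0.0014). Dusp16 passed it in none. It was at 1474, 1431, 1680 and 1380 in the untreated libraries, between 1050 and 1616 in the direct and day 1 groups, at 1795, 2440 and 1894 in indirect day 2 and at 1929, 2604 and 2585 in PAM day 2. Its day 2 libraries were above all untreated ones, with a log2 fold change of 0.66 ± 0.13 (adjusted p = 0.00465) in PAM day 2, below the fold required, and of 0.44 ± 0.12 (adjusted p = 0.0171) in indirect day 2.

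Neither Sprouty gene passed the threshold in any group. Spry2 was at 667, 788, 574 and 711 in the untreated libraries, between 484 and 727 in the direct and day 1 groups, and at 696, 735 and 761 in indirect day 2, all of which overlapped with the untreated range. In PAM day 2 it was at 759, 994 and 1218, with 2 of the 3 libraries above the untreated range and a log2 fold change of 0.51 ± 0.18 (adjusted p = 0.0421). Spry4 was low throughout, at 75, 66, 77 and 79 in the untreated libraries and between 68 and 145 in the treated ones. Its largest difference was in indirect day 1, at 100, 111 and 141, where the log2 fold change was 0.64 ± 0.17 (adjusted p = 0.0344). In PAM day 2 it was at 75, 85 and 85, close to the untreated range.

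Mapk11, which encodes 1 of the 4 p38 kinases, was the gene of the 10 that changed most at day 1. It was at 53, 46, 68 and 68 in the untreated libraries, and in lines 1, 2 and 4 at 158, 172 and 229 in direct 24 h, at 127, 158 and 182 in indirect day 1 and at 332, 305 and 275 in PAM day 1. At day 2 it was at 267, 274 and 202 with indirect CAP and at 244, 276 and 342 with PAM. Every treated library, those of direct 30 min at 87, 86 and 173 included, was above every untreated one. The log2 fold change was 2.37 ± 0.18 in PAM day 1 (adjusted p = 0.000109), 2.28 ± 0.21 in PAM day 2 (adjusted p = 0.000338) and 2.06 ± 0.20 in indirect day 2 (adjusted p = 0.000158). It was 1.65 ± 0.22 in direct 24 h (adjusted p = 0.00414) and 1.39 ± 0.21 in indirect day 1 (adjusted p = 0.00687), both past the threshold.

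**Figure D2:**
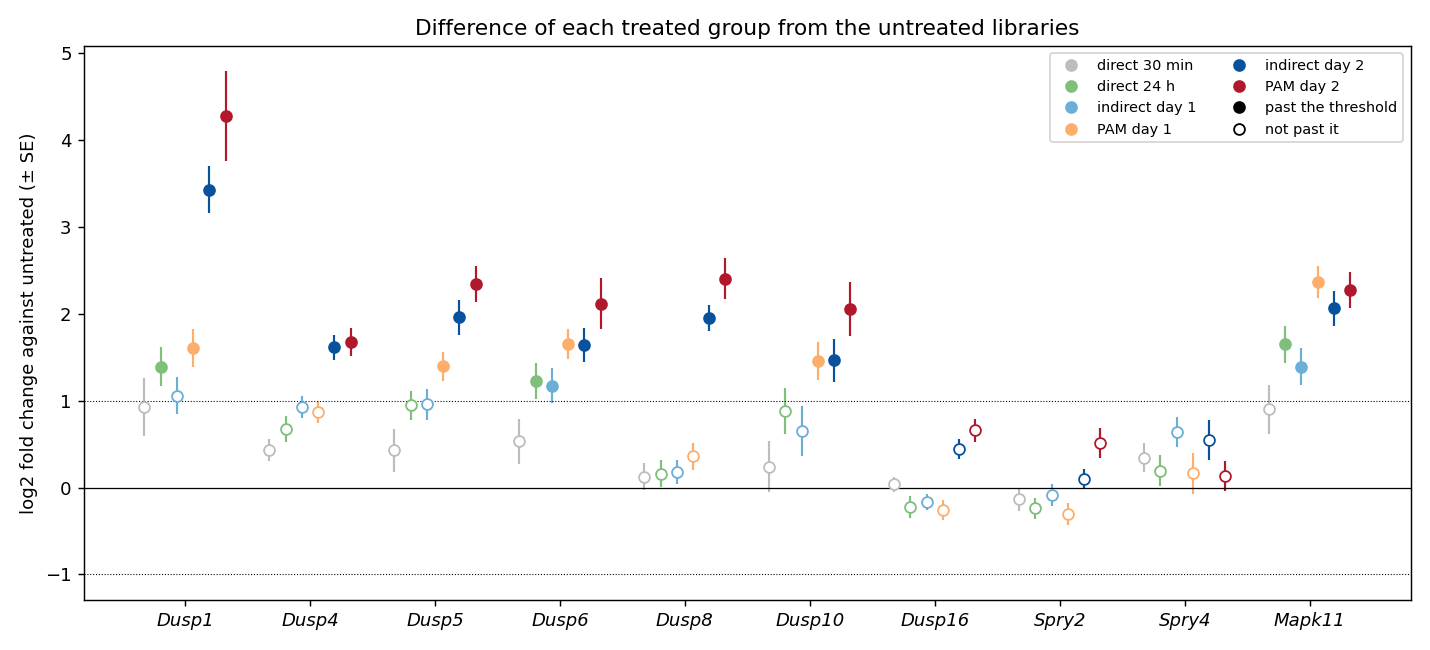
The log2 fold change of each gene against the untreated libraries is plotted on the vertical axis for the 6 treated groups, with the SE as the bar, filled points past the threshold and dotted lines at the fold required. Dusp1 reaches 4.28 in PAM day 2, and all points of Dusp16, Spry2 and Spry4 are open.

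Counted by group, 0 of the 10 genes passed the threshold in direct 30 min, where the share over all genes tested was 0.00564%. That share is 1 gene of 17731, Egr1, an immediate-early transcription factor, at a log2 fold change of 1.79 (adjusted p = 0.00696 by limma). At an unadjusted p under 0.05, 3 of the 10 genes were found there (Dusp1, Dusp4 and Mapk11), against 24.9% of all genes. The library of line 4 in direct 30 min held the highest of the 3 values for 7 of the 10 genes. Without it the log2 fold change of Dusp1 was 0.51 and that of Dusp6 was 0.22, against 0.93 and 0.53 with it. Line 4 also held the highest value for 7 of the 10 genes in direct 24 h and in PAM day 2. The number was 6 in indirect day 1, 5 in PAM day 1 and 2 in indirect day 2. Which library was left out made no difference to the loss of that call of Egr1, which was lost in all 7 such fits. In direct 24 h 3 of the 10 genes passed (Dusp1, Dusp6 and Mapk11), against 2.17% of all genes and 1.25% in the higher direction. In indirect day 1 the number was 2 (Dusp6 and Mapk11), against 1.31% of all and 0.831% higher. In PAM day 1 it was 5 (Dusp1, Dusp5, Dusp6, Dusp10 and Mapk11), against 10.2% of all and 4.83% higher. In both indirect day 2 and PAM day 2 it was 7, namely Dusp1, Dusp4, Dusp5, Dusp6, Dusp8, Dusp10 and Mapk11. The shares of all genes were 11.9% (6.20% higher) in indirect day 2 and 17.3% (6.82% higher) in PAM day 2. These comparisons share the untreated libraries. Because the 10 genes were chosen with earlier results of these data known, their counts beside the shares of all genes, here and below, are descriptions only.

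Counted by ranges, 4 of the 10 genes lay above the untreated range in all libraries of direct 30 min (Dusp1, Dusp4, Spry4 and Mapk11), where 12.4% of all genes did. The number was 5 in direct 24 h against 11.6% of all, 6 in indirect day 1 against 16.7% and 6 in PAM day 1 against 17.1%. It was 8 in indirect day 2 against 22.7% and 8 in PAM day 2 against 20.7%, in both cases the 7 genes past the threshold and Dusp16.

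The median log2 fold change of the 10 genes was 0.39 in direct 30 min, 0.78 in direct 24 h, 0.79 in indirect day 1, 1.13 in PAM day 1, 1.63 in indirect day 2 and 2.09 in PAM day 2. Over all genes tested the median lay between -0.13 and 0.02. With the 9 libraries of direct 24 h, indirect day 1 and PAM day 1 taken as 1 group, 4 of the 10 genes passed (Dusp1, Dusp5, Dusp6 and Mapk11), against 6.34% of all and 4.27% higher, and 5 had no overlap with the untreated range, against 7.16%. Dusp4, at 0.82 (adjusted p = 0.000216), and Dusp10, at 0.996 (adjusted p = 0.00922), were just under the fold required. With the organoid line as a block Dusp10 passed as well, at 1.17 (adjusted p = 0.00481), where 7.18% of all genes passed.

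Without the untreated libraries of lines 1 and 2, 0 of the 10 genes passed the threshold in direct 24 h, in indirect day 1, in PAM day 2 and in the 9 pooled libraries, where the shares over all genes were 0%, 0%, 0.00583% and 0.806%. In PAM day 2 the log2 fold changes of the 7 genes were then between 1.82 (Dusp4) and 3.98 (Dusp1), with adjusted p-values between 0.0126 and 0.0261. In PAM day 1 5 genes then passed (5.15% of all genes), with Dusp4 in place of Dusp10, and in indirect day 2 6 passed (6.05%), without Dusp10. In direct 24 h the number was 0 without the treated library of line 1 or of line 4 or when the untreated library of line 1, 2 or 4 was left out, and 1 when that of line 3 was. In indirect day 1 the calls of Dusp6 and Mapk11 were both lost whichever library was left out, and Dusp4 was called in their place when the untreated library of line 1 was (1.01). In indirect day 2 Dusp10 was lost without the library of line 4. No single library changed the number in PAM day 1 or PAM day 2. With all 7 groups in one fit, Dusp1 in direct 24 h had an adjusted p of 0.0343 and Dusp6 in indirect day 1 one of 0.0120.

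The day 2 and day 1 groups, which also differ in the age of the medium and the time since exposure, were compared within each medium. For indirect CAP, 6 of the 10 genes were higher at day 2 than at day 1 with no overlap (Dusp1, Dusp4, Dusp5, Dusp8, Dusp16 and Mapk11), against 12.1% of all genes. None of the 10 genes passed the threshold in limma's test without a block, where 0.0111% of all genes did, although Dusp1 and Dusp8 both had an adjusted p of 0.0193 and 7 of the 10 had an unadjusted p under 0.05 (21.7% of all genes). With the line as a block, 3 passed, against 3.46% of all genes. These were Dusp1 at 2.37 ± 0.18 (adjusted p = 3.77e-05), Dusp8 at 1.77 ± 0.14 (adjusted p = 4.43e-05) and Dusp5 at 1.001 ± 0.11 (adjusted p = 0.000196). Within lines 1, 2 and 4, Dusp1 was 3.62-, 8.16- and 4.69-fold higher at day 2, and Dusp8 2.55-, 4.49- and 3.49-fold.

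For PAM, 6 of the 10 genes were likewise higher at day 2 with no overlap (Dusp1, Dusp4, Dusp5, Dusp8, Dusp16 and Spry2), against 16.2% of all. None passed the threshold with or without the block, and neither did any other gene (0% of all), while 6 of the 10 had an unadjusted p under 0.05 (26.8% of all genes). Dusp8 came nearest, at 2.05 ± 0.27 (adjusted p = 0.0503, and 0.0198 with the block). With all 7 groups in one fit, which shares the spread over all libraries, Dusp1 and Dusp8 passed for PAM, against 4.55% of all genes, and 1 gene, Dusp8, passed for indirect CAP, against 0.315%. Dusp1 was at 2.67 ± 0.58 (adjusted p = 0.0635), and within lines 1, 2 and 4 it was 2.13-, 7.60- and 15.9-fold higher, the widest spread among lines of the 10 genes. Mapk11 and Spry4 were the 2 genes whose estimate with PAM was below 0. For Mapk11, lines 1 and 2 were lower at day 2, at 0.736- and 0.905-fold, and line 4 was higher, at 1.24-fold.

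**Figure D3:**
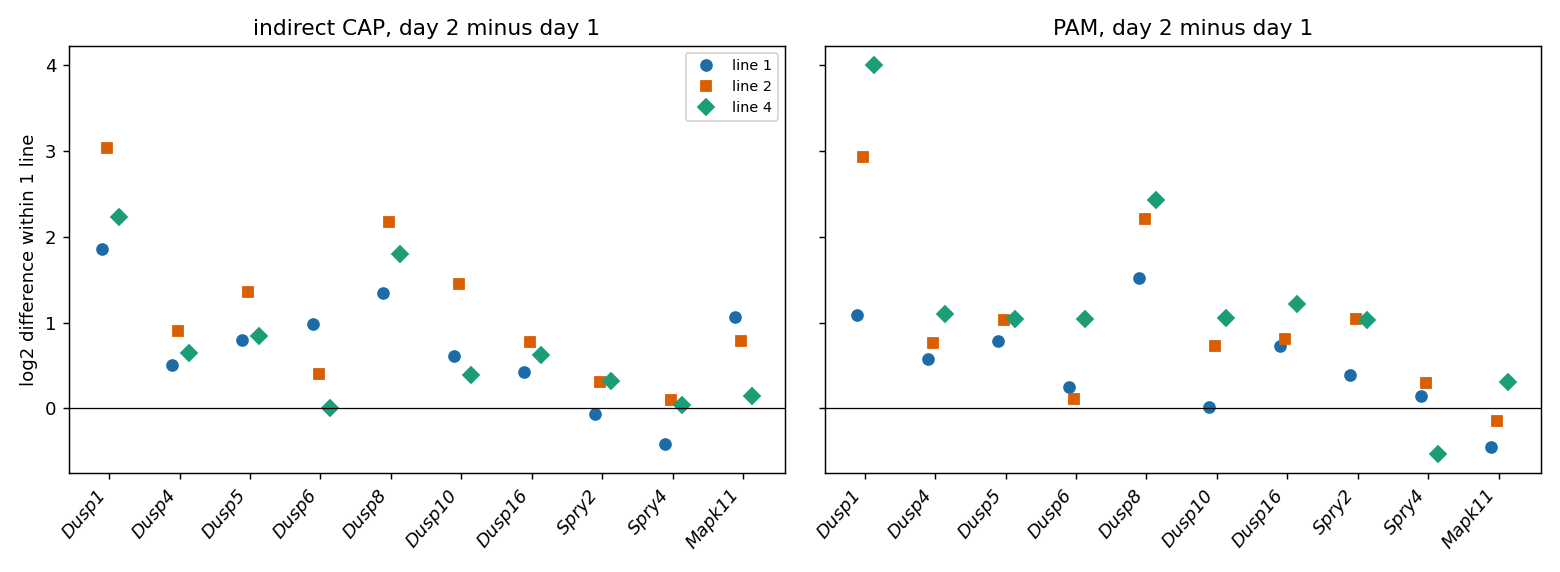
The difference between day 2 and day 1 within each organoid line is plotted on the log2 scale for each gene, with indirect CAP on the left, PAM on the right and 1 point per line. Dusp1 and Dusp8 are above 1 in all 3 lines with both media, and the points of Spry4 lie on both sides of 0.

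The difference between days was compared between the media by an interaction term. No gene passed the threshold in it, with 0 of the 10 and 0% of all genes, and 2 of the 10 had an unadjusted p under 0.05 (4.55% of all genes). These were Mapk11, with a difference between days of -0.09 with PAM and 0.67 with indirect CAP, and Spry2, with 0.82 and 0.19, and the adjusted p of limma's interaction term was 0.986 for both. Among the methods of application, PAM day 2 and indirect day 2 had 0 of the 10 genes apart in limma's test and 0 at an unadjusted p under 0.05 (9.48% of all genes), with log2 differences between -0.41 (Spry4) and 0.85 (Dusp1). None of the 10 was higher in PAM day 2 with no overlap, where 2.28% of all genes were. PAM day 1 and direct 24 h also had 0 past the threshold (0% of all genes in both comparisons), and 3 at an unadjusted p under 0.05 (10.4% of all genes). Of these only Mapk11 did not overlap, at 158 to 229 in direct 24 h and 275 to 332 in PAM day 1 (0.72 ± 0.19, adjusted p = 0.356), where 5.68% of all genes were higher with no overlap. Between direct 24 h and direct 30 min 0 of the 10 passed (0% of all), none lay outside the range of the other group (7.33% of all genes were higher with no overlap), and 2 had an unadjusted p under 0.05 (Dusp6 and Mapk11), close to the share of all genes of 21.4%.

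Other genes of the pathway are described from fixed lists, whose own medians and counts stand beside the 10 genes. Among upstream components, the 14 genes for Ras proteins and their adaptors had 0 members past the threshold in any treated group, with a median log2 fold change of -0.04 in PAM day 2. Of 19 RAF and MAP kinase kinase kinase genes 1 passed in PAM day 2, namely Map3k20, which encodes the stress-activated kinase ZAK and fell by 1.15. Of 7 MAP kinase kinase genes, Map2k6, whose product activates p38, fell in PAM day 1, indirect day 2 and PAM day 2, at log2 fold changes of -1.42, -2.16 and -3.39 (adjusted p = 0.000184, 4.03e-05 and 0.000338). Map2k6 thus fell in 3 groups in which the p38 gene Mapk11 rose. Of the other MAP kinase genes, Mapk15 rose in both day 2 groups, by 1.84 and 2.62, and Mapk12, another p38 gene, rose by 1.66 in the 9 pooled day 1 libraries (adjusted p = 0.00307), a call lost when line 3 or line 4 was left out of the untreated group.

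Among the other phosphatases, 2 of the 3 remaining members of the MAP kinase phosphatase family were tested, and Dusp7, an ERK phosphatase, fell by 1.34 in PAM day 2 (adjusted p = 0.00413). With the line as a block its adjusted p was 0.0105. Of 9 atypical phosphatases tested, Dusp3 rose in PAM day 1, indirect day 2 and PAM day 2, by 1.41, 1.76 and 2.20, while Dusp12 fell by 1.16 in PAM day 1 and Dusp19 fell by 1.06 in PAM day 2. Dusp18 rose by 1.08 in indirect day 2, which fell short at 0.989 without line 1. Of the 5 other Sprouty and Spred genes, 1 passed the threshold in each of 4 groups, always Spred3, which encodes an inhibitor of the ERK cascade. It was higher by 1.34 in indirect day 1, a call lost with the line as a block and without any 1 library, by 1.68 in PAM day 1, by 2.32 in indirect day 2 and by 2.54 in PAM day 2. Of 10 further inhibitors of the pathway tested, 2 rose and 2 fell in PAM day 2. Ptprr, a tyrosine phosphatase of MAP kinases, rose by 2.43 and Errfi1, an inhibitor of the EGF receptor, by 1.18, whereas Lrig1, an inhibitor of EGF receptor signaling that marks crypt cells, fell by 2.27 and Il17rd, which inhibits FGF signaling, fell by 1.88.

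The 10 transcripts often used as readouts of ERK output did not move as 1 block. In PAM day 2, 4 rose and 2 fell, with a median log2 fold change of 0.26. Epha2 rose by 2.73, Fosl1 by 2.68 and Ier3 by 2.33, while Etv5 fell by 1.58. Etv4, chosen after its values were seen and outside the naming rule given below, fell by 1.04. It was not followed in the alternative fits. In PAM day 1, 5 rose and 0 fell, namely Fosl1 (2.60), Epha2 (2.36), Ier3 (2.05), Ccnd1 (1.16) and Phlda1 (1.05), of which Ccnd1 was lost in 4 of the 7 fits without 1 library and Phlda1 in 2. In indirect day 2, 4 rose, with Fosl1 (2.36) and Epha2 (2.30) first and Ier3 (1.90), lost in 3 such fits, and Egr1 (1.55) next. Egr1 was past the threshold in direct 30 min (1.79), indirect day 1 (1.78) and indirect day 2 (1.55). Its call in indirect day 1 was lost without the untreated library of line 4. Fosl1 also passed in direct 24 h (2.22), with Ccnd1 (1.04), and in indirect day 1 (2.20). Of the 7 fits without 1 library, the call of Fosl1 was lost in 5 in direct 24 h and in 7 in indirect day 1. That of Ccnd1 in direct 24 h was lost in 6. Leaving out 1 library at a time, the calls of Dusp7, Etv5 and Ier3 in PAM day 2 were each lost in 5 of the 7 fits. That of Dusp19 was lost in 4, and those of Ptprr and Il17rd were each lost in 2. The PAM day 2 calls of Dusp3, Spred3, Mapk15, Map2k6, Map3k20, Errfi1, Lrig1, Epha2 and Fosl1 were kept in all of these fits. Without the untreated libraries of lines 1 and 2, however, none of the 15 calls of other pathway genes followed in PAM day 2 was kept. In PAM day 1 8 of 13 were kept, and in indirect day 2 10 of 12. The shares of all genes called in these smaller fits were 0.00583% in PAM day 2, 5.15% in PAM day 1 and 6.05% in indirect day 2. Of the 10 downstream kinase genes, Rps6ka4, which encodes a kinase downstream of ERK and p38, rose by 1.08 in PAM day 1, which fell short without the treated or the untreated library of line 1, and 0 passed in PAM day 2.

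**Figure D4:**
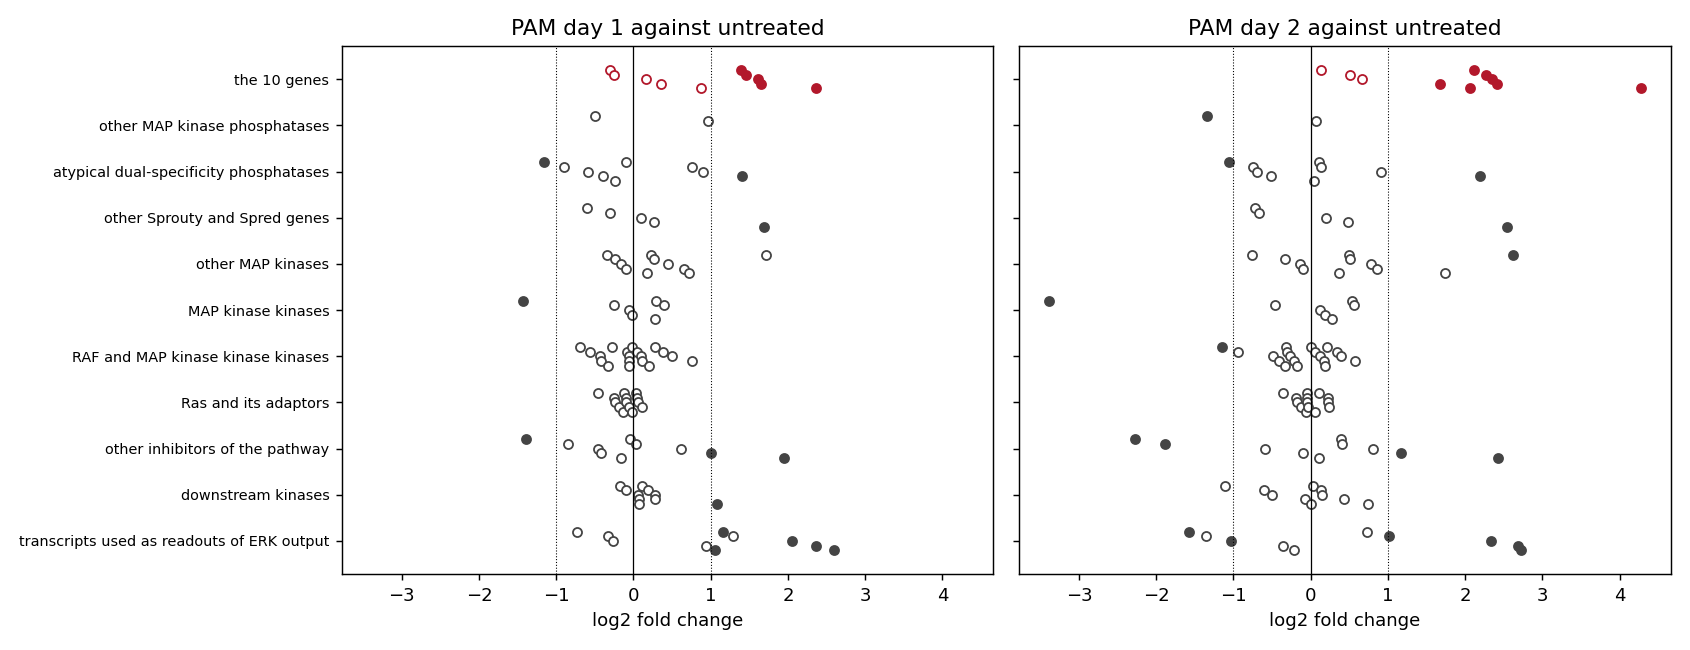
The log2 fold change against untreated is plotted for the 10 genes and for each list of other pathway genes, in PAM day 1 on the left and PAM day 2 on the right, with 1 point per gene, filled past the threshold, and dotted lines at the fold required. The genes for Ras and its adaptors cluster at 0, and the readouts of ERK output lie on both sides of it in PAM day 2.

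Over the 22 libraries, the level of Dusp1 was most like that of Dusp8 among the 10 genes, and the reverse (Pearson r = 0.943 on log2 values). Dusp5 and Dusp10 were also each other's nearest (r = 0.942), as were Dusp6 and Mapk11 (r = 0.926). Dusp4 was nearest to Dusp1 (r = 0.897), Dusp16 to Dusp8 (r = 0.870) and Spry2 to Dusp8 (r = 0.704), while Spry4 was no nearer than 0.376 to any of the others. Among 19370 genes, the gene of the most similar pattern was Pvr for Dusp1 (r = 0.984), Ppp1r15a for Dusp4 (r = 0.960), Zfand2a for Dusp5 (r = 0.991), Gcnt2 for Dusp6 (r = 0.980) and Gm11175 for Dusp8 (r = 0.968). For Dusp10 it was Rhou (r = 0.975), for Dusp16 Jun (r = 0.954), for Spry2 Kat5 (r = 0.876), for Spry4 Rffl (r = 0.816) and for Mapk11 Unc5b (r = 0.968). The 22 libraries share lines and treatments, so these values describe likeness over groups.

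By GENCODE vM21 on GRCm38, Dusp1 lies at chr17:26505590-26562128 on the minus strand, Dusp8 at chr7:142079490-142095843 on the minus strand and Dusp5 at chr19:53529109-53542431 on the plus strand. The promoter stretches printed for Dusp1 and Dusp8, which are placed by the RefSeq starts, lie inside these spans but outside the genes' annotated exons, and that of Dusp5 lies before its span. The exons of Dusp1 share 11 bases with those of Ergic1 on the opposite strand, those of Dusp8 share 66 bases with the non-coding gene Gm32786, whose highest value was 9, and those of Dusp5 share 547 bases with an antisense transcript. Whether the counting used strand is not given in the sources used here, and without strand, reads from overlapping genes on opposite strands cannot be told apart. For the other 7 genes no exon overlapped with one of another gene.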

How the data were processed

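The data are 22 RNA-seq libraries, namely 4 untreated ones and 3 for each of the 6 treatments. Per the labels and the study's methods, the authors trimmed paired-end reads with Trimmomatic (version 0.36), aligned them with STAR (version 2.5.3a) to GRCm38, counted them per Ensembl gene with HTSeq (version 0.9.1) and used edgeR. The deposited unit is a score, which the authors made from counts that they scaled to 20 M per library and rounded up to whole numbers, so raw counts were not used here and no count test was run. The study defines the unit per kilobase of transcript, but the values show no division by length. The 24 pairs of replicates within a group were checked for libraries deposited more than once, and none was found. Libraries of different groups were not compared in this check.

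Genes that reached a value of 10 in 3 or more of the compared libraries were tested as log2(value + 1), a scale that understates changes of low genes, with limma's trended moderated test (R 4.3.3, limma 3.58.1) and Benjamini-Hochberg adjustment over all genes tested. Genes past an adjusted p of 0.01 whose log2 fold change was 1 or more in size were called. The method was tested on simulated data that held no differences between lines and only changes larger than the fold required. That test therefore says nothing about calls near the threshold in these data. Motifs, exon lengths and figures were made with Python 3.11.15, pandas 2.3.3 and matplotlib 3.10.9, with sequences from RefSeq (GRCm38.p6). Of the 52636 deposited genes, 52403 were matched to GENCODE vM21.

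The members and lists were chosen with earlier results of these data known. Named are the 10 genes, for a comparison described within a pathway list every gene past the threshold where at most 5 were and otherwise the 4 of largest change, and the gene of the most similar pattern to each of the 10. Map2k7 has more than 1 entry, of which the first was used. The result of 1 marker list is not reported here. Same-numbered libraries come from the same line, that is from the same mouse, and an alternative fit took the line as a replicate block. After removal of group means the median correlation was 0.536 between libraries of the same line (60 of 63 pairs over 0.1) and -0.306 between lines, and among treated libraries all 45 pairs of the same line were over 0.1. Further alternatives were leaving out libraries, fitting all 7 groups at once, testing every gene without the filter, a pseudocount of 10, quantile normalization, and calls at an adjusted p of 0.05 whatever the fold.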

Additional observations from a re-analysis of the deposited data

How the results depend on the processing

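Depth limits Spry4, Dusp10 and Mapk11 most, whose untreated values lie under 101, and with 3 libraries in a group a p-value rests on the spread between lines. Quantile normalization, which undoes the median shift of -0.13 and -0.12 over all genes in PAM day 1 and PAM day 2, a pseudocount of 10 and no filter on low values moved no number of genes past the threshold by over 1.5 times. With calls at an adjusted p of 0.05 whatever the fold, the number was 5 in direct 24 h (17.3% of all genes), 6 in indirect day 1 (20.6%) and 3 in indirect day 2 against day 1 (3.37%). With all 7 groups in one fit it was 1 in indirect day 1, 1 in indirect day 2 against day 1 and 2 in PAM day 2 against day 1 (Dusp1 and Dusp8). With the replicate block it was 3 in indirect day 2 against day 1. The block also changed the call of Dusp10 in the pooled day 1 libraries, as did leaving out the untreated library of line 3 with no block. It changed no other call of the 10 genes. Without the untreated libraries of lines 1 and 2 it was 0 in direct 24 h, indirect day 1, PAM day 2 and the pooled day 1 libraries, where fewer samples were fitted. Leaving out 1 library at a time, the number lay between 0 and 3 in direct 24 h, between 0 and 1 in indirect day 1, between 6 and 7 in indirect day 2 and between 3 and 5 in the pooled day 1 libraries, at 5 in PAM day 1, at 7 in PAM day 2 and at 0 elsewhere.

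Changes of sign were found only in differences near 0 that passed no threshold, and the cause was not tested. Without the untreated libraries of lines 1 and 2, Dusp8 in direct 30 min was at -0.0081 and Spry2 in indirect day 1 at 0.0058 on the log2 scale. With quantile normalization, Spry4 was at 0.011 for indirect day 2 against day 1 and at 0.089 for PAM day 2 against day 1, Mapk11 at 0.069 for PAM day 2 against day 1, and Dusp16, Spry2 and Spry4 at 0.0096, 0.020 and 0.046 for PAM day 1 against direct 24 h, while the interaction of Dusp6 was at -0.040. Leaving out 1 library at a time, the ranges that crossed 0 were, in direct 30 min, -0.019 to 0.21 for Dusp8, -0.043 to 0.48 for Dusp10 and -0.0053 to 0.095 for Dusp16, in PAM day 1 -0.11 to 0.31 for Spry4, and in direct 24 h against 30 min -0.077 to 0.18 for Dusp8. For Spry4 they were -0.29 to 0.18 for indirect day 2 against day 1 and -0.17 to 0.25 for PAM day 2 against day 1, where Mapk11 had -0.22 to 0.019. For PAM day 1 against direct 24 h they were -0.17 to 0.084 for Dusp16, -0.12 to 0.025 for Spry2 and -0.31 to 0.12 for Spry4, and for PAM day 2 against indirect day 2 -0.054 to 0.21 for Dusp4. In the interaction they were -0.21 to 1.01 for Dusp1, -0.29 to 0.20 for Dusp5, -0.36 to 0.25 for Dusp6, -0.51 to 0.078 for Dusp10 and -0.21 to 0.34 for Spry4.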
